A study of Homo sapiens with 2 samples.

Results

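The loci of WDR77 and PRMT5 were examined in a map of precipitated chromatin from A549 cells. A549 is a lung adenocarcinoma line of human origin, and the cells used here stably overexpressed Myocardin (MYOCD) from the vector pWPI. The labels describe 1 library made with anti-Myocardin and 1 made with IgG, a nonspecific antibody, and both came from the overexpressing line. The deposited data are a single list of 105637 summits of peaks, in which each row is 1 bp wide and has a score. No summit is tied to either library, so an anti-Myocardin signal cannot be set against an IgG signal at these genes. No value has a replicate, and the depth of sequencing was not analysed here.

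Members were the summits that lay in the span of either gene or within 20 kb on each side, in assembly GRCh37. WDR77 spans chr1:111982512-111991915 and PRMT5 spans chr14:23389732-23398661, both on the minus strand, so that the start of each gene is the higher position. The rule found 4 summits of the 105637 in the list, 1 in the WDR77 window and 3 in the PRMT5 window. The rule names the genes and uses no summit position to pick them, but they were chosen with earlier results of these data known. No exon or intron annotation of GRCh37 was used, so a summit is placed only by its distance from the span.

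PRMT5 is the main arginine methyltransferase that places symmetric dimethyl marks on histones and on spliceosomal Sm proteins. WDR77, also known as MEP50, is a WD-repeat protein that binds PRMT5 and presents its substrates, and the complex of both is often called the methylosome. Myocardin activates genes of smooth and cardiac muscle and reaches DNA mainly through the serum response factor, whose binding sequence is the CArG box.

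Both genes carried a summit just inside their start. The sequences before these starts are therefore shown, as given by RefSeq for GRCh38.p14 from 250 bases before to 50 bases after the annotated start, 5′ to 3′ on the gene's strand. Capitals mark matches of AAGATGGC, CTCGCGAG and CCAAT on either strand (CCAAT on the opposite strand reads ATTGG). The WDR77 promoter lies at chr1:111449207-111449506 and the PRMT5 promoter at chr14:22929327-22929626, both on the minus strand of GRCh38.p14, and these positions cannot be set beside the GRCh37 positions of the summits.
WDR77: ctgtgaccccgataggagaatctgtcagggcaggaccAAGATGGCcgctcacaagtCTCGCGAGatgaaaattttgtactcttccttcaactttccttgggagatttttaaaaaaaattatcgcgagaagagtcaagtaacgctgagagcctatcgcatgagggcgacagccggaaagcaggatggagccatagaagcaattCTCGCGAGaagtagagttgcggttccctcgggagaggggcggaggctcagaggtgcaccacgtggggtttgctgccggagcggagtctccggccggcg
PRMT5: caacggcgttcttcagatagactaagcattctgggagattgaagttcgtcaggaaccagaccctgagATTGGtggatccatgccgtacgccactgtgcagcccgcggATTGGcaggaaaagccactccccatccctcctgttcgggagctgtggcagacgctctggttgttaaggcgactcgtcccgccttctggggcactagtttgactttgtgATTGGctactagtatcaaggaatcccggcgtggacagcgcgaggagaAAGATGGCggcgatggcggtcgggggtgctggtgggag

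Neither promoter held a CArG box, which 1.29% of the 35116 RefSeq promoters of this length held on either strand. Only exact matches of the consensus within the printed bases were counted. The sequence at the summits themselves was not searched, so the presence of a CArG box there was not tested. AAGATGGC occurred in both, 213 bases before the WDR77 start and 13 bases into PRMT5, against 2.89% of all promoters. CTCGCGAG occurred 2 times before WDR77, at 194 and 48 bases from the start, and was absent from the PRMT5 promoter. Of all promoters, 1.02% held at least 1 copy of it and 0.0626% held at least 2. CCAAT occurred 3 times before PRMT5, at 183, 143 and 35 bases from the start and each time on the opposite strand, and was absent before WDR77, against 34.6% of promoters with at least 1 copy. GGGCGG, the core of the GC box, occurred 1 time before WDR77 and was absent from the PRMT5 promoter, against 45.0% of promoters. No match overlapped a match of another motif. All motifs other than the CArG box were chosen after the sequences had been read, so these shares describe the promoters and test nothing.

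Both promoters overlapped that of a gene read in the other direction. The WDR77 window overlapped by 293 of 300 bases that of ATP5PB, which encodes a subunit of the mitochondrial ATP synthase, and the PRMT5 window overlapped by 268 bases that of PRMT5-DT, a divergent noncoding transcript. Of all promoters, 16.3% overlapped one on the opposite strand. Their base composition was ordinary: 54.7% G or C for WDR77 and 58.0% for PRMT5, with a median of 58.7% over all promoters. The WDR77 promoter held 21 CG dinucleotides and the PRMT5 promoter 20, against a median of 14. These counts were above those of 60.5% (WDR77) and 58.8% (PRMT5) of all promoters.

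The WDR77 summit lay at position 111991677 of chromosome 1, 238 bases downstream of the start, with a score of 8.28. The PRMT5 summit nearest the start lay at position 23398477 of chromosome 14, 184 bases downstream, with a score of 8.73. Each was the single summit within its gene's span, so 1 summit at the 5′ end was seen in both genes and none in the rest of either body. Of the covered positions of chromosome 1, 1.7% lay within 238 bases of a summit, and of those of chromosome 14, 1.51% lay within 184 bases. Here covered means from the first to the last summit of a chromosome without stretches of at least 1 Mb that hold none. How often other gene starts lie this near a summit was not tested, since no GRCh37 annotation was used. For windows as long as the spans, 27.3% on chromosome 1 and 29.5% on chromosome 14 held at least 1 summit, so 1 summit in a span of 9.40 kb (WDR77) or 8.93 kb (PRMT5) is common on these chromosomes.

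If the starts of both annotations coincide, the summit bases lie 189 bases (WDR77) and 135 bases (PRMT5) beyond the last base printed above. In GRCh37 the WDR77 span used here is 37 bases longer, and the PRMT5 span 82 bases longer, than in the RefSeq table of GRCh38.p14, so the starts may differ by some bases. Both starts share their region with a divergent gene, and a summit 1 bp wide cannot be assigned to one direction of transcription.

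**Figure D1:**
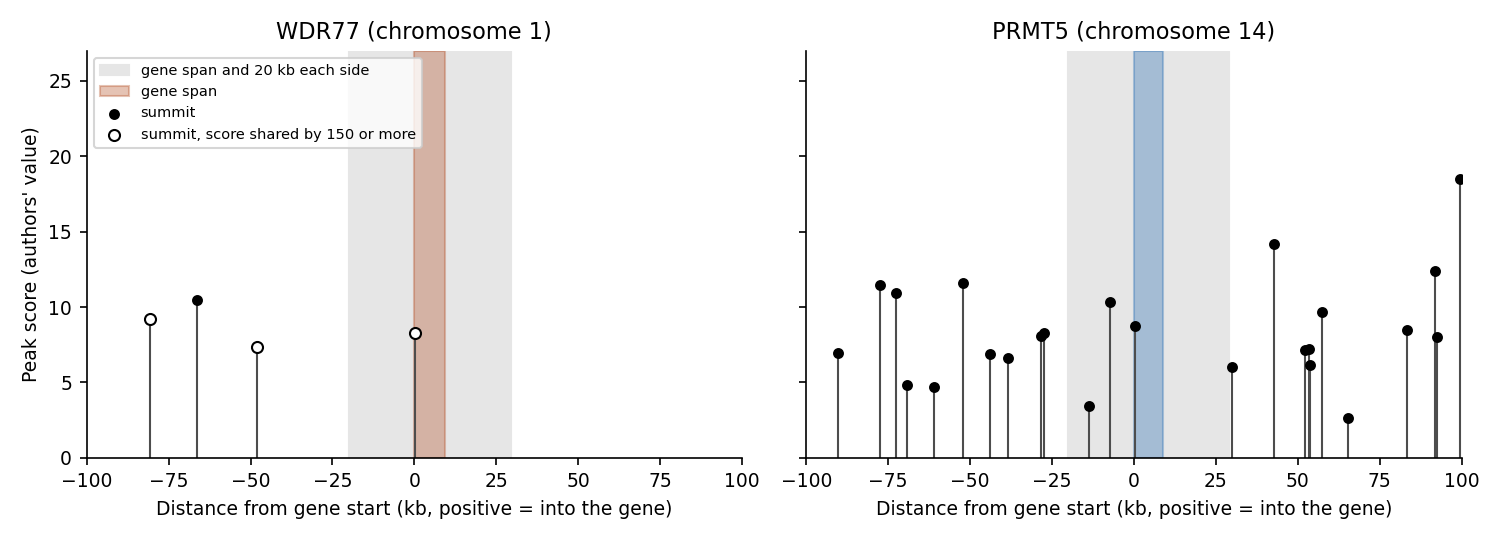
Summits within 100 kb of the start of WDR77 (left) and PRMT5 (right), by distance from the start in kb (positive values run into the gene) and peak score. Grey bands mark the gene spans with 20 kb each side, coloured bands the spans, and open points scores shared by at least 150 summits of the list; WDR77 has 4 summits in the range and PRMT5 has 24, and each span holds 1 summit, at its start.

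The WDR77 window of 49.4 kb held no summit other than the one at the start. Its nearest neighbours lay 48.2 kb away on the upstream side, at position 112039830 with a score of 7.37, and 102 kb away on the downstream side, at position 111889217 with a score of 6.49. The start summit thus stood alone in a stretch of 151 kb. On chromosome 1, 4.97% of the 8154 summits had their nearest neighbour at least as far away. The protein-coding neighbours of WDR77 in the RefSeq table are ATP5PB on the upstream side and OVGP1, an oviduct glycoprotein gene, on the other.

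The PRMT5 window of 48.9 kb held 2 further summits, both upstream of the start. The one at position 23405905 lay 7.24 kb upstream with a score of 10.3, the highest of the 4 members. The one at position 23412351 lay 13.7 kb upstream with a score of 3.44, the lowest of the 4. Past the 3′ end of PRMT5 the window held none, and the first summit beyond its edge, at position 23368731 with a score of 6.01, missed it by 1.001 kb. On the upstream side the first summit outside lay 7.56 kb beyond the edge, at position 23426225 with a score of 8.29. The protein-coding neighbours in the RefSeq table are HAUS4, which encodes a subunit of the spindle complex augmin, on the upstream side and RBM23, an RNA-binding protein gene, on the other. Without a GRCh37 annotation the flanking summits are not assigned to them.

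Against all windows of equal length on their own chromosome, neither count stood apart. The WDR77 window held 1 summit (exact Poisson 95% interval 0.0253 to 5.57), and 70.2% of 228076 windows on chromosome 1 held at least as many. These windows averaged 1.76 ± 1.81 summits (SD over windows), and 29.8% held none. The PRMT5 window held 3 summits (interval 0.619 to 8.77), and 32.5% of 88166 windows on chromosome 14 held at least as many. These windows averaged 2.001 ± 1.97 summits, and 25.7% held none. The windows started every 1000 bases and overlap, so they are no independent draws and no p is given. The intervals cover counting error only.

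**Figure D2:**
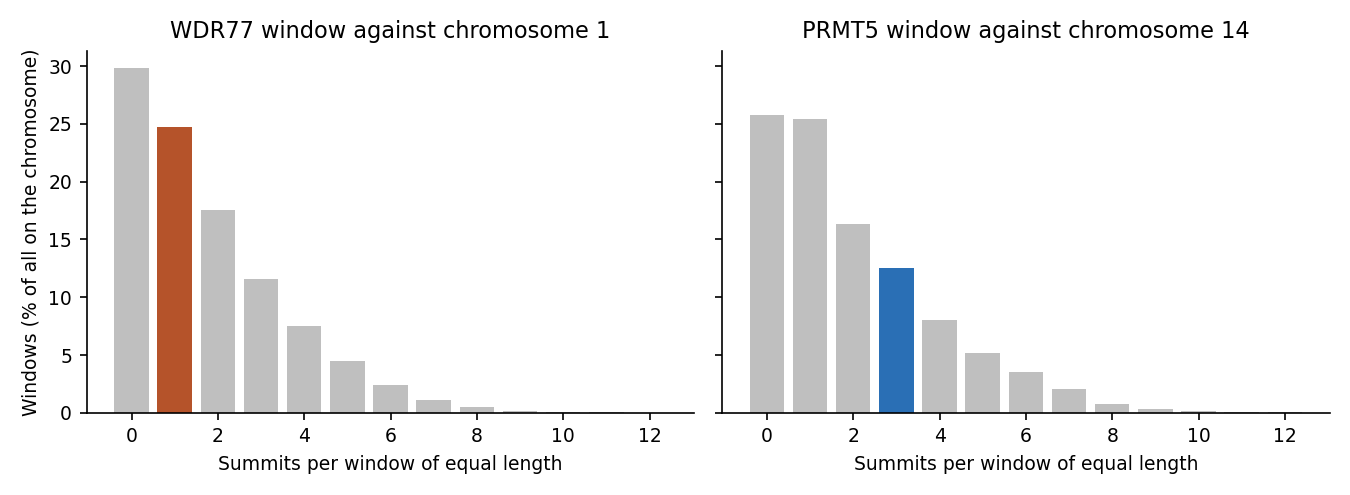
Share of all windows of equal length on chromosome 1 (left, windows as long as the WDR77 window) and chromosome 14 (right, as long as the PRMT5 window) by the number of summits they hold, up to 12. The coloured bar is the number in the gene's own window, 1 for WDR77 and 3 for PRMT5; both lie in the body of the distribution.

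Set against each other, the WDR77 window had 0.33 times the summit density of the PRMT5 window, 20.2 against 61.3 per Mb. The exact 95% interval of the ratio ran from 0.00629 to 4.11, so 1 and 3 summits cannot show a difference. Over the gene spans alone the ratio was 0.95 (interval 0.0121 to 74.5), from 1 summit in each. The counts lay further apart with wider flanks. With flanks of 50 kb there were 2 summits around WDR77 and 13 around PRMT5, a ratio of 0.153 (interval 0.0168 to 0.677). Within 100 kb of the start there were 4 around WDR77 and 24 around PRMT5, a ratio of 0.167 (interval 0.042 to 0.485). These intervals treat summits as independent and are too narrow. Counts per window spread more than independent summits would give, with an SD of 1.97 at a mean of 2.001 on chromosome 14. The distance of 100 kb was chosen after the positions were seen, so a difference between the loci was not tested.

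Taken by radius, both genes were above the median of their own chromosome from 1 to 10 kb. From 20 kb on WDR77 was at or below the median of chromosome 1. PRMT5 was above the median of chromosome 14 at each radius up to 500 kb. Within 50 kb of the start WDR77 had 2 summits, against a median of 3 over covered positions, and within 200 kb it had 8, against a median of 12. Within 50 kb of the start PRMT5 had 9 summits, against a median of 3, and 12.2% of covered positions had at least as many. Within 100 kb PRMT5 had 24, against a median of 6, and 1.82% of positions had at least as many. Within 200 kb it had 43, against a median of 13 (2.38% of positions), and within 500 kb it had 87, against a median of 33 (7.73%). Over 5 Mb on each side the densities were 26.0 summits per Mb around WDR77 and 44.8 per Mb around PRMT5, against 35.7 on the covered part of chromosome 1 and 40.9 on that of chromosome 14. Copy number and base composition of these regions were not examined.

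**Figure D3:**
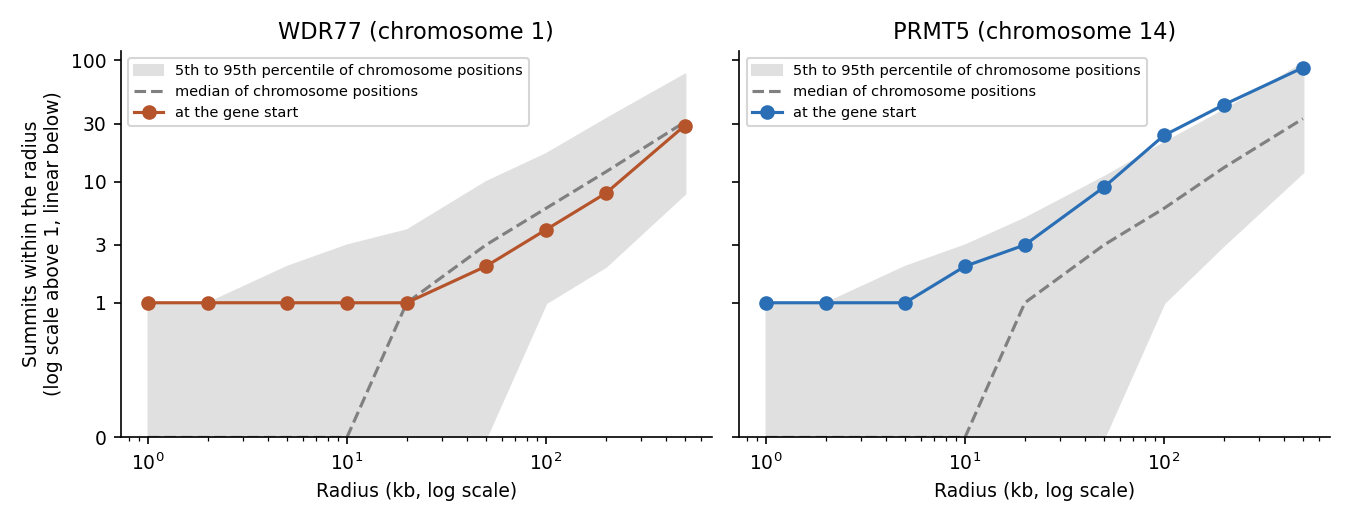
Number of summits within a given radius of the gene start (coloured points) for WDR77 (left) and PRMT5 (right), with the median (dashed) and the 5th to 95th percentile (grey) over positions of the covered chromosome taken every 1000 bases. The radius is on a log scale, and the counts are on a log scale above 1. WDR77 stays near or below the median from 20 kb on, and PRMT5 passes the 95th percentile at 100 kb, with 24 summits.

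All 4 members had middling or low scores. The score is the authors' own value per peak and ranks peaks only within this list, where it ran from 2.15 to 281.39 with a median of 8.50. The start summit of WDR77 scored above 44.8% of the list and that of PRMT5 above 51.2%. The flanking PRMT5 summits scored above 65.0% (the one 7.24 kb upstream) and 0.964% (the one 13.7 kb upstream). Of the 4, 0 reached the top 25% of scores, which begins at 12.2. By the rule of 3 (3 divided by the number of summits) a count of 0 of 4 allows a share of up to 75.0%, a rough limit at so small a count. The nearest summit in the top 25% lay 159 kb upstream of the WDR77 start and 42.7 kb downstream of the PRMT5 start, past its 3′ end.

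**Figure D4:**
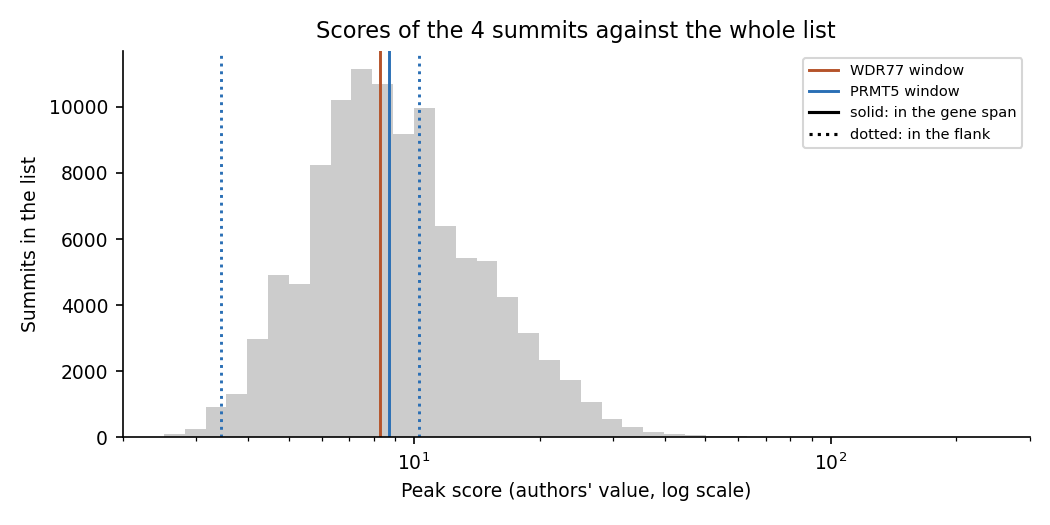
Number of summits in the list by peak score (log scale), with the scores of the WDR77 window (1 line) and the PRMT5 window (3 lines) drawn across it; solid lines are summits in a gene span and dotted lines those in a flank. Both solid lines, at 8.28 and 8.73, lie beside the median of 8.50, and the dotted lines lie at 3.44 and 10.3.

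The scores of the start summits differed in how many summits of the list shared them. The limit of 150 sharing summits used below was a choice, and the value at the PRMT5 start was shared too. The value at WDR77 was shared to its last decimal by 4016 summits, 3.80% of the list, and is one of 19 values that at least 150 summits share. The value at the PRMT5 start was shared by 70 summits, that of the summit 7.24 kb upstream by 17 and that of the one 13.7 kb upstream by 5. Within 100 kb of the start, 3 of 4 summits around WDR77 carried one of the 19 values (75.0%, exact Clopper-Pearson 95% interval 19.4% to 99.4%). Around PRMT5 0 of 24 did (interval by the same method 0% to 14.2%). Both intervals treat neighbouring summits of a locus as independent draws and may be too narrow, so a difference between the loci was not tested. Over the whole list the share was 29.4%. It was 77.8% among the 5602 summits whose nearest neighbour lay at least as far as that of the WDR77 start summit, and 48.8% among the 49394 whose nearest neighbour lay at least as far as that of the PRMT5 start summit, 7.43 kb. Most of the 24 summits around PRMT5 had a neighbour nearer than 7.43 kb, and among summits spaced that closely the share was below the 29.4% of the whole list. Farther out, a value shared by 3569 summits occurred 103 kb downstream of the WDR77 start and 157 kb downstream of the PRMT5 start. The part of the spacing of summits in the contrast within 100 kb was not tested, and that distance was chosen after the positions were seen.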

How the data were processed

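Per the labels, chromatin of A549 cells was precipitated with anti-Myocardin or IgG, with 1 library each and 15 PCR cycles. The authors deposited 1 list with a peak score per summit. The sources used here do not give the aligner, the caller's version and threshold, or the use of the IgG library. CASAVA 1.4, mm9 and GRCh38.p12 are named in the submitters' processing notes. Of the 105629 nuclear summits, 0 lay past a chromosome end of hg19 (GRCh37), 1093 past one of hg38 and 1667 past one of hg18 (lengths from the R package GenomeInfoDb). The End column was taken as summit, 1-based. Gene spans in GRCh37 came with the rule for the members.

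Every window of equal length, started each 1000 bases inside the covered sequence, was counted in place of a random draw, which would estimate the same value. Motifs were matched exactly on both strands of 35116 RefSeq promoters. The counting functions were tested on simulated positions. Python 3.11.15, numpy 2.4.6 and scipy 1.17.1 were used. Alternatives were other flanks, score filters, linked summits, window placements and the Start column. The members, lists and measures were chosen with earlier results of these data known. Genes named are the members and their neighbours in the RefSeq table. The other subunits and methyltransferases foreseen in the design were not analysed here, since their GRCh37 positions were not at hand.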

Additional observations from a re-analysis of the deposited data

How the results depend on the processing

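Of 40 alternatives over 11 results, 22 stayed close to the reported value and 18 moved. Close meant within 1.5 times for counts, distances and score percentiles, and within the exact 95% interval for the ratio of densities and for shares of windows. The interval of a share took as its number of trials the window lengths that fit side by side into the covered sequence, so shifts of a few percentage points count as moved. Several alternatives that stayed close could hardly move. The Start column lies 1 bp from the End column, windows started every 100 bases largely repeat the reported ones, and percentiles within the chromosome rank the same scores. The interval of the ratio, 0.00629 to 4.11, is so wide that 0.153 with flanks of 50 kb counted as close. With the gene span alone the PRMT5 count was 1 and the share of windows with at least as many was 29.5%, and for WDR77 the share was 27.3%. With flanks of 10 kb the WDR77 share was 56.1%. With flanks of 50 kb PRMT5 had 13 summits and a share of 4.01%, and WDR77 had 2 summits and a share of 72.4%, so the place of PRMT5 on its chromosome depends on the flank. Over the top 25% of scores both windows held 0 summits, as did 65.4% of windows on chromosome 1 and 58.9% on chromosome 14, and the nearest summit lay 158957 bases from the WDR77 start and 42708 bases from the PRMT5 start. Over scores at or above the median WDR77 held 0. Windows over the whole chromosome gave shares of 64.2% for WDR77 and 26.8% for PRMT5, and windows within 5 Mb gave 65.6% for WDR77 and 39.4% for PRMT5. With summits within 1.5 kb counted as 1 the PRMT5 share was 29.5%. The ratio of densities could not be computed over the top 25% of scores, where both counts are 0. No paired analysis was possible because the list ties no value to a library. Leaving out a replicate was not possible either, since each antibody has 1 library, and the reads behind the summits were not analysed here.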
